A study of Danio rerio with 4 samples.

Results

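The genes described here code for the contractile and structural proteins of smooth muscle. This tissue lies in the walls of blood vessels and ducts and, as thin myoid cells, surrounds the tubules of the testis. The list held 10 zebrafish genes: acta2, myh11a, tagln, cnn1b, myl9a, myl9b, desma, desmb, tpm1 and tpm2. They were found on the array by the transcript identifier of each probe. Of the 10, 9 had at least 1 probe, with 20 probes in all among 43543, and the 9 were part of 24323 genes tested. No probe identifier matched cnn1b (calponin), which is not analysed here.

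Total RNA from testes of 4-month-old zebrafish was hybridised to 1-colour arrays. The MCLR group (n = 2 arrays) had been kept for 6 weeks in water with 20 µg/L microcystin-LR, a toxin of cyanobacteria and an inhibitor of PP1 and PP2A, enzymes that take phosphate off proteins. The control group (n = 2 arrays) had spent the same 6 weeks at 0 µg/L. Neither the pools of fish behind each replicate nor the assignment of arrays to the study's independent experiments is labelled, so p-values measure only the spread between these samples.

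Smooth muscle contracts when myosin thick filaments pull on actin thin filaments. Contraction starts when a kinase phosphorylates the regulatory light chain of myosin, and it ends when myosin phosphatase, whose catalytic subunit is a PP1 protein, removes that phosphate. Of the proteins coded here, alpha smooth muscle actin (acta2) forms thin filaments, tropomyosins (tpm1, tpm2) lie along them and transgelin (tagln) binds to them. Smooth muscle myosin heavy chain (myh11a) and the regulatory light chains (myl9a, myl9b) form the thick filament side, and desmin (desma, desmb) is the intermediate filament of muscle cells. Desmin and tropomyosins are also made in skeletal and heart muscle, and tropomyosins and regulatory light chains in many other cells.

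The arrays shared 1 slide, MCLR occupying positions 1 and 2 and control 3 and 4. Slide position therefore cannot be told apart from group. The share of spots well above background ran from 81.9% to 88.2%, with 0 saturated. Germ cell, Sertoli and Leydig cell markers of the testis were present, with 18 of 18 genes that had a probe well above background on all 4 arrays. Control replicate 2 stood apart in 1 respect: the summed signal of the pancreas marker genes was 377 there against 15.2 to 19.6 on the other arrays, in multiples of each array's 75th percentile.

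Each of the 9 smooth muscle genes had its brightest probe well above background on every array, so transcripts of the listed genes were measurable in these testes. That does not show a smooth muscle source, since 25 of 26 skeletal muscle markers were also above background on all arrays. The arrays measured whole testes, so the signal could not be placed in the testis wall, a vessel or a duct. Fewer smooth muscle cells and less RNA per cell cannot be told apart in such samples. Levels below are log2 of the processed signal relative to each array's 75th percentile. They serve to compare arrays for 1 probe, not 1 gene with another.

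MCLR did not separate the smooth muscle genes from control beyond the spread of the arrays. With limma, 0 of the 9 genes passed an adjusted p of 0.05, and the smallest adjusted p was 0.886, for tagln. In the whole comparison 0 of 24323 genes passed (0%). At an unadjusted p under 0.05, 0 of the 9 passed, against 9.2% of all genes. The median log2 fold change of the 9 was 0.15, beside 0.08 for all genes tested, and 8 of the 9 were higher in MCLR, as were 61.4% of all genes. That count was 8 of 9 with quantile normalization and in the deposited value table, 9 with a background correction and 6 with scaling to the array median. The shares of all genes higher in these settings were 53.4%, 53.2%, 53.3% and 48.1%, in that order. The background correction, here and below, started from the median intensity and was followed by quantile normalization. Its values therefore differ from the main ones in more than the background.

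The level of acta2, the gene most often used to mark smooth muscle, was 3.90 and 4.79 in control testes and 4.14 and 4.39 in exposed testes. Both MCLR arrays lay between the control arrays. The log2 fold change of acta2 was -0.08 with a standard error of 0.36 (n = 2 arrays per group; errors after ± below are of the same kind), with a 95% interval from -0.98 to 0.82 (adjusted p = 0.999, limma). Its sign was not stable, being -0.03 with quantile normalization alone and 0.05 after the background correction with quantile normalization. The control arrays alone were 0.89 apart, a 1.85-fold difference.

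**Figure D1:**
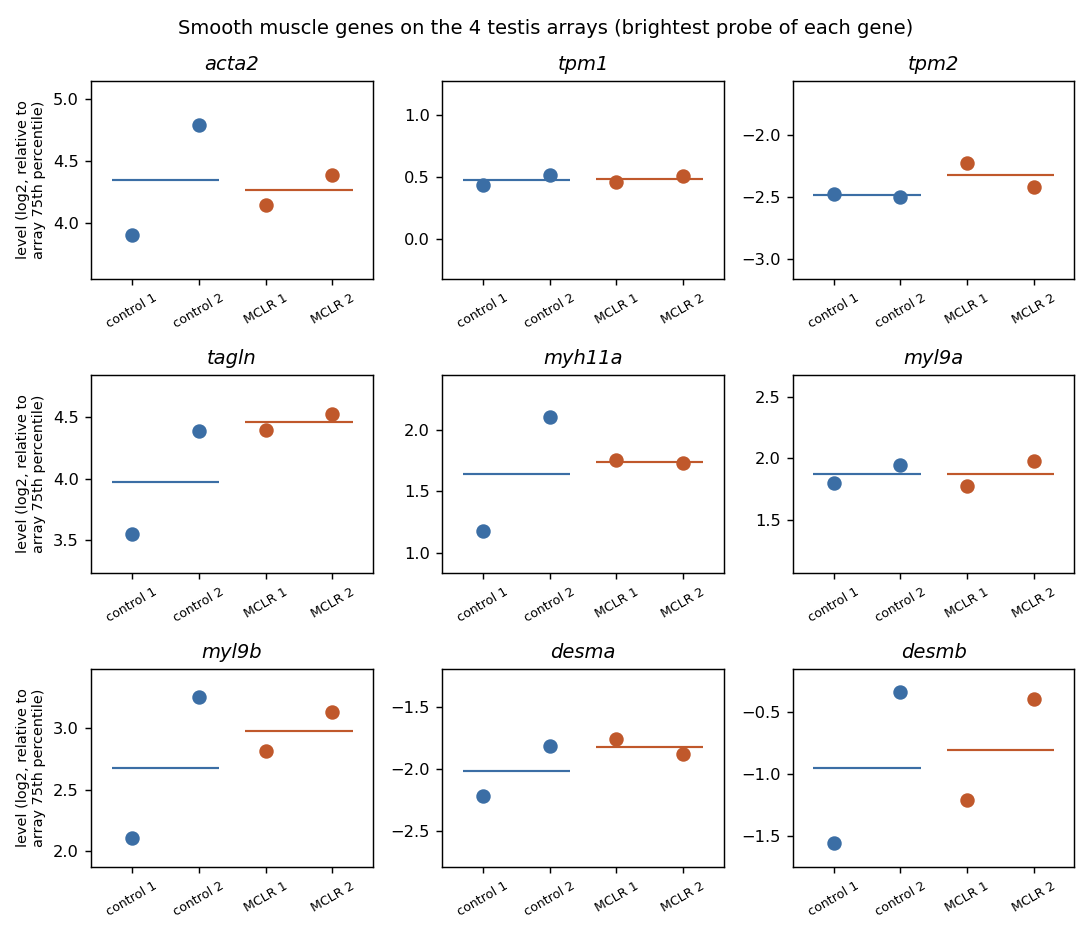
Level of each gene's brightest probe on the 4 arrays (log2 of processed signal relative to the array's 75th percentile; blue control, orange MCLR; lines are group means of 2 arrays; each panel spans the same range). In acta2, myh11a, tagln, myl9b and desmb control replicate 1 lies lowest and the controls are 0.83 to 1.22 apart, while tpm1 stays between 0.44 and 0.51.

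The 2 listed tropomyosin genes, tpm1 and tpm2, varied little by their brightest probes. The level of tpm1 was 0.44 and 0.51 in control testes and 0.46 and 0.51 in exposed testes, and the groups overlapped. By the brightest probe the log2 fold change was 0.01 ± 0.23, and the other probes gave -0.06 and -0.02. Those probes were not lowest on control replicate 1 but highest there, at -1.16 against -1.36 to -1.25, and at -1.71 against -2.003 to -1.78. The range of the brightest tpm1 probe over the arrays, 0.08, was wider than that of 0.284% of genes tested. The level of tpm2 was -2.47 and -2.501 in control testes and -2.22 and -2.42 in exposed testes. Both MCLR arrays lay above both controls, with a log2 fold change of 0.16 ± 0.24 (adjusted p = 0.999, limma). Tropomyosin genes outside the list did not all vary as little. The level of tpm4a was 1.82 and 2.60 in control testes and 2.26 and 2.53 in exposed testes, with control replicate 1 lowest and control replicate 2 highest. That of tpm3 was 2.76 and 2.80 in control testes and 2.40 and 2.66 in exposed testes.

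Transgelin gave the highest log2 fold change among the 9. The level of tagln was 3.56 and 4.39 in control testes and 4.39 and 4.52 in exposed testes. The MCLR arrays were above both controls, yet the lower of them differed from control replicate 2 by less than the rounding shown. Its log2 fold change was 0.48 ± 0.34 (95% interval -0.37 to 1.34, adjusted p = 0.886, limma). Leaving out control replicate 1 gave 0.07, and leaving out control replicate 2 gave 0.90. Groups that do not overlap occurred in 2 of the 9 genes (tagln and tpm2), against 34.4% of all genes. In both MCLR was above, as in 25.3% of all genes, and in 0 of the 9 it was below, as in 9.08%.

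Thick filament genes were represented by the heavy chain and 2 light chain paralogs. The level of myh11a was 1.18 and 2.103 in control testes and 1.75 and 1.73 in exposed testes, with both MCLR arrays between the controls. By this probe the log2 fold change was 0.10 ± 0.36, and the other probe gave 0.12. The difference between the control arrays was 0.92 by the first probe and 0.39 by the second, control replicate 1 being the lower in both.

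The regulatory light chain gene myl9b stood at 2.11 and 3.25 in control testes and 2.81 and 3.13 in exposed testes. Its MCLR arrays again fell between the controls, and its log2 fold change was 0.29 ± 0.42 (adjusted p = 0.999, limma). The 4 probes of myl9b each placed control replicate 1 lowest, and the controls differed by 1.101, 1.14, 1.31 and 1.42. Their log2 fold changes ran from 0.18 to 0.52.

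Its paralog myl9a stood at 1.80 and 1.94 in control testes and 1.77 and 1.98 in exposed testes. The groups overlapped, with a log2 fold change of 0.0022 ± 0.24. The 2 probes of myl9a placed the controls 0.14 and 0.58 apart, less than any of the 4 probes of myl9b. This difference between paralogs was seen on 1 pair of arrays and was not tested.

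Both desmin genes were measured by several probes. The level of desma was -2.22 and -1.82 in control testes and -1.76 and -1.88 in exposed testes, so that the groups overlapped, and its log2 fold change was 0.20 ± 0.26. A second probe gave 0.27. Another, dim probe was not well above background on either control array. Taken against the lowest signal of any probe well above background on each control array, its signal in MCLR was 1.92-fold higher. That is not a bound for this probe. The adjusted p was 0.189 (limma, every probe on its own). This probe entered the test only through the MCLR arrays, and its p was fitted to control values below background.

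The level of desmb was -1.56 and -0.34 in control testes and -1.22 and -0.39 in exposed testes. Replicates 1 were low and replicates 2 high in both groups. The log2 fold change of desmb was 0.15 ± 0.50, and the 95% interval ran from -1.098 to 1.39. Another desmb probe gave 0.76 ± 0.42 (adjusted p = 0.77, limma), with -3.43 and -2.33 in control testes and -2.31 and -1.93 in exposed testes. The remaining desmb probe was well above background on 1 of 4 arrays and was not tested.

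**Figure D2:**
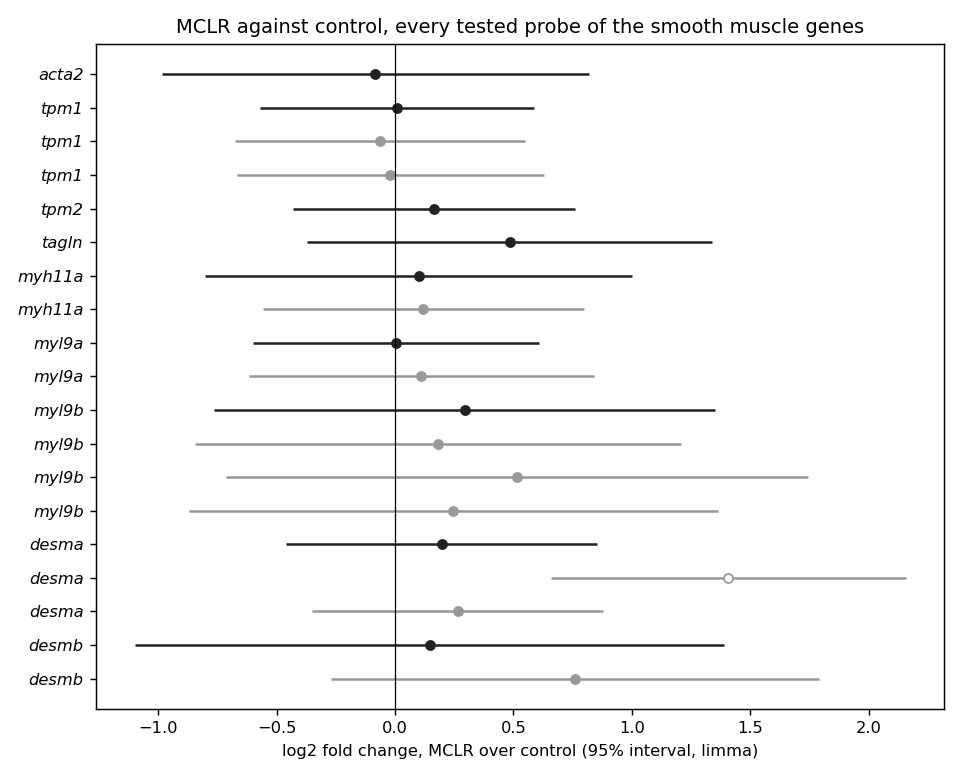
Log2 fold change of MCLR over control with its 95% interval (limma) for the 19 tested probes; black is the brightest probe of a gene, grey the others from a fit with every probe on its own, and the open circle is the desma probe not above background in the controls. Intervals of all probes but that one include 0.

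The intervals limit what could be seen. For 4 of the 9 genes (myh11a, tagln, myl9b and desmb) the 95% interval reached a 2-fold higher level in MCLR, and for desmb it also reached a 2-fold lower one. For tpm1 the interval ran from -0.57 to 0.59 and for myl9a from -0.60 to 0.61.

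The largest differences among these genes lay between the control arrays. The lowest level was on control replicate 1 in 7 of the 9 genes, against 38.7% of all genes. By probe it was there in 15 of 19, but several probes read the same gene and no share over all probes was taken. The highest level was on control replicate 2 in 5 of the 9 genes, against 23.7% of all genes. The control arrays were further apart than the size of the log2 fold change in 8 of the 9 genes, as in 61.1% of all genes. The median difference between control arrays was 0.83 for the 9 genes and 0.31 for all genes. Between MCLR arrays it was 0.20 and 0.29.

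Set among all genes, the distance between the controls was larger than that of 93.4% of genes for desmb, 92.6% for myl9b, 89.1% for myh11a, 88.3% for acta2 and 86.7% for tagln. Among genes within 0.5 of the same mean level these shares were 94.2%, 97.0%, 96.9%, 94.5% and 93.5%. The distance was in the middle of the range for desma (60.9%), and small for myl9a (24.4%), tpm1 (14.0%) and tpm2 (4.78%). These shares are for each gene's brightest probe. Other probes gave other distances, such as 0.58 for myl9a and 0.39 for myh11a.

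**Figure D3:**
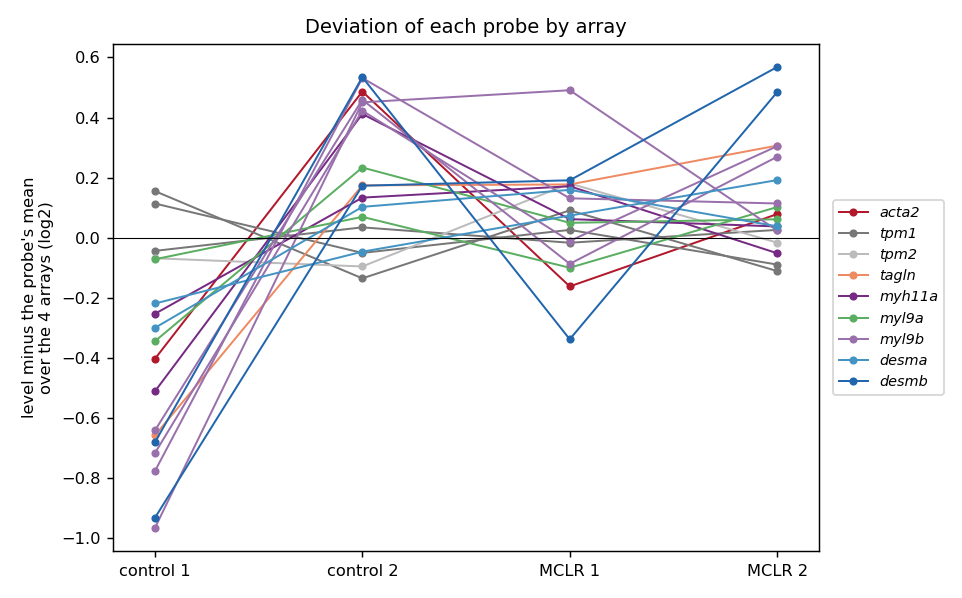
Level of each probe minus its own mean over the 4 arrays (log2) for the 18 probes well above background on every array; lines join the points of 1 probe. Most probes lie lowest on control replicate 1, while those of tpm1 and tpm2 stay near 0.

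**Figure D4:**
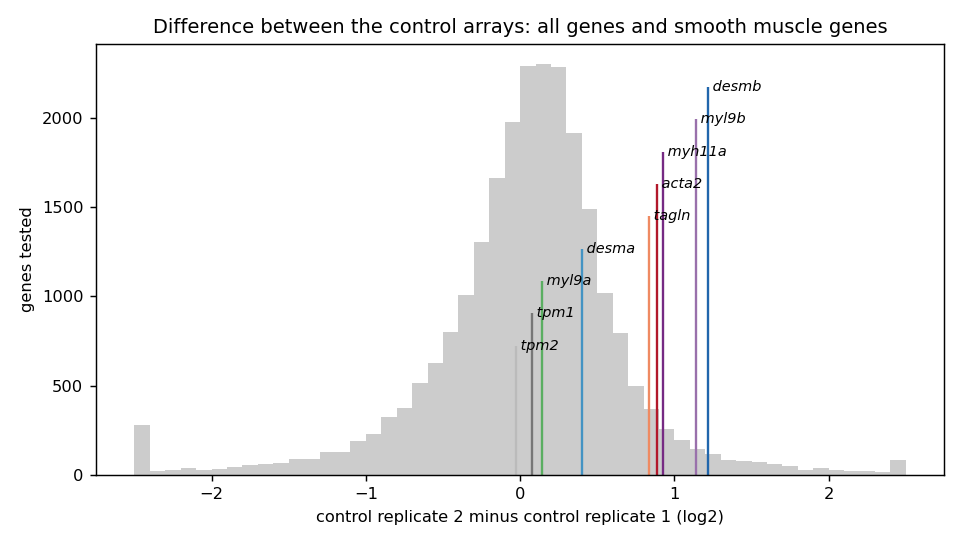
Control replicate 2 minus control replicate 1 (log2) for 24323 genes (grey; the end bars also hold all larger differences), with the 9 smooth muscle genes marked. The values of tagln, acta2, myh11a, myl9b and desmb run from 0.83 to 1.22, and tpm2 is at -0.03.

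The sign of the comparison turned for most of the 9 genes with the choice of control array. It also turned for some with the choice of MCLR array. Without MCLR replicate 1, 9 of the 9 were higher in MCLR, beside 58.7% of all genes. Without MCLR replicate 2, 5 of the 9 were, beside 61.4% of all genes. Without control replicate 1, 2 of the 9 genes (tagln and tpm2) were higher in MCLR, beside 54.7% of all genes. There acta2 had a log2 fold change of -0.53, desmb -0.46, myh11a -0.36 and myl9b -0.28. Without control replicate 2, 9 of the 9 were higher, beside 64.8% of all genes, with tagln at 0.90 and myl9b at 0.86. In the same setting desmb was at 0.75, myh11a at 0.56 and acta2 at 0.36. In that setting 2 of the 9, tagln and myl9b, had an unadjusted p under 0.05, beside 14.1% of all genes, and their adjusted p was 0.276 and 0.323 (limma, with the lone control assumed to vary like the MCLR arrays). Neither setting gave an adjusted call among the 9.

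Markers of other cells moved between the control arrays too. The summed signal of the smooth muscle genes was 38.9 and 69.0 in control testes and 54.8 and 62.5 in exposed testes, in multiples of the array's 75th percentile. Pericyte markers, of the cells that wrap small vessels, summed to 5.10 and 12.096 in control testes and 9.97 and 8.03 in exposed testes, with 6 of 7 genes well above background on all arrays. Of 6 tested, 4 were lowest on control replicate 1, while notch3 and abcc9 were lowest on control replicate 2. The brightest, rgs5b, carried most of the difference between the control sums and was at 1.302 and 3.02 in control testes and 2.75 and 2.02 in exposed testes. Endothelial markers summed to 4.27 and 6.13 in control testes and 5.30 and 6.16 in exposed testes (8 of 9 genes above background), and 6 of 8 tested genes were lowest on control replicate 1. Their part in the smooth muscle result was not tested.

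Skeletal muscle markers summed to 59.098 and 116 in control testes and 103 and 75.4 in exposed testes, with 25 of 26 above background on all arrays and 17 of 26 lowest on control replicate 1. One gene, mybpc2b (a myosin binding protein), carried most of that sum, at 5.33 and 6.58 in control testes and 6.38 and 5.78 in exposed testes. Heart muscle markers were dim, with 7 of 12 above background on all arrays. They summed to 1.74 and 2.06 in control testes and 2.38 and 2.49 in exposed testes, and 0 passed the adjusted threshold. Of the 7 above background on all arrays, 7 were higher in MCLR, beside 59.4% of the 22371 genes in a fit limited to such probes. Several were near 0. The log2 fold changes of tnnt2a, actc1a, hand2, tnni4a and myl7 were 0.06, 0.07, 0.15, 0.20 and 0.70. After the background correction these were 0.0059, 0.068, -0.061, 0.086 and 0.12. At an unadjusted p under 0.05, 2 of the 7 were higher in the main fit, beside 1171 of those 22371 in the limited fit. The 2 fits have their own p-values (limma). Of these 2, tnnc1a and myh7l had log2 fold changes of 0.73 and 0.81, which were 0.11 and 0.57 after the background correction. The 2 tested probes of tnnc1a gave 0.17 and 0.73, and the 5 of myh7l ran from 0.16 to 1.66. The other 5 tested genes were below background on at least 1 array. Desmin and tropomyosin are shared with striated muscle, and the part of these markers in the values of desma, desmb, tpm1 and tpm2 was not tested.

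The sum of the fibroblast and matrix markers differed less between arrays, at 11.9 and 12.9 in control testes and 13.2 and 14.3 in exposed testes (8 of 9 above background on all arrays). Single markers could differ more, as lum did, at -4.48 and -4.19 in control testes and -4.87 and -3.36 in exposed testes. Of the 8, 7 were higher in MCLR, beside 59.4% of genes in the fit limited to such probes. The testis markers summed to 347 and 417 in control testes and 377 and 396 in exposed testes. Intestine markers, of an organ with a smooth muscle wall, summed to 1.18 and 1.77 in control testes and 1.71 and 1.43 in exposed testes, with 8 of 12 above background on all arrays. The pancreas signal was high on control replicate 2, where the smooth muscle genes were highest in 5 of 9 cases. On control replicate 1, where they were lowest in 7, it was 15.9, and its part was not tested.

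**Figure D5:**
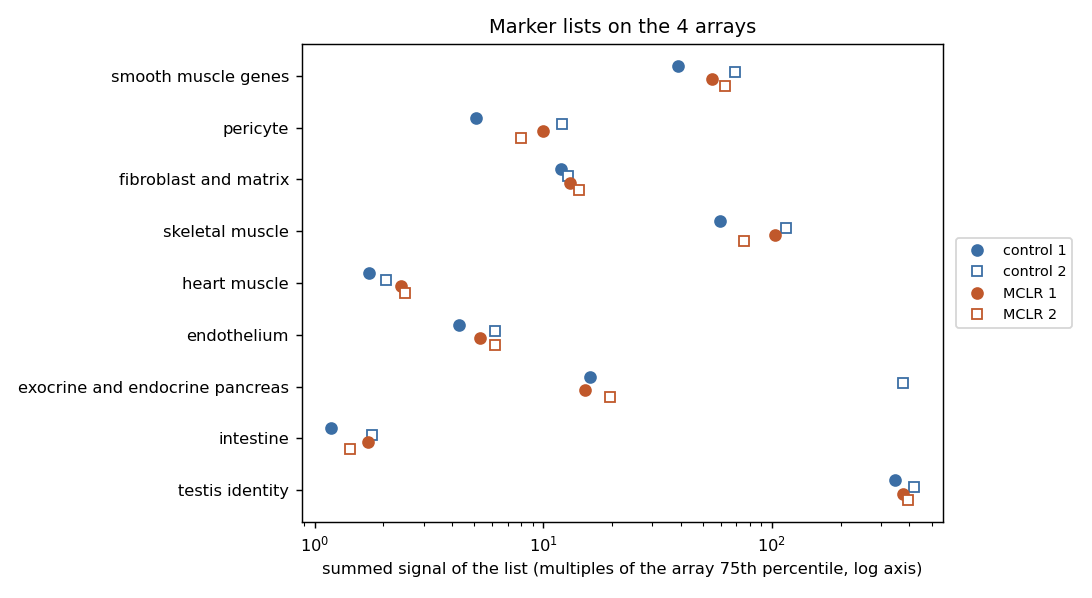
Summed signal of each marker list on the 4 arrays, in multiples of the array's 75th percentile (log axis; circles replicate 1, squares replicate 2; blue control, orange MCLR). Of the 9 lists, 8 have their lowest sum on control replicate 1; the pancreas list does not, and is at 377 on control replicate 2 alone.

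Among partners of the contractile filaments, 22 genes were tested, 0 passed the adjusted threshold and 1 was higher at an unadjusted p under 0.05, beside 8.67% of all genes. Their median log2 fold change was 0.03, with 12 higher and 10 lower. The gene was tpm4b, a further tropomyosin, at -4.33 and -4.21 in control testes and -3.18 and -3.38 in exposed testes. Its log2 fold change of 0.99 ± 0.24 (adjusted p = 0.234, limma) was 0.20 after the background correction. The offset of 50 in that correction by itself shrinks the log2 fold changes of dim probes. The others with the smallest p were cnn1a (calponin), pdlim3a (a protein of actin anchoring sites) and myl6 (the essential light chain of myosin), at 0.59, 0.37 and 0.32. After the background correction these were 0.046, 0.14 and 0.29. The median size of the difference between the control arrays in this list was 0.25, beside 0.31 for all genes. Of the 22 tested, 9 were lowest on control replicate 1, beside 38.7% of all genes. Caldesmon (cald1a), which binds thin filaments, was 1 of them, at 1.304 against 1.58 to 1.90.

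Of 19 genes that control contraction, 0 passed the adjusted threshold, 2 were higher at an unadjusted p under 0.05 and 0 lower, beside 8.67% and 0.53% of all genes. Their median log2 fold change was -0.08, with 14 of 19 lower. The endothelin receptor gene ednrba was at -4.92 and -4.94 in control testes and -4.09 and -4.08 in exposed testes, a log2 fold change of 0.84 ± 0.23 (adjusted p = 0.289, limma) that was 0.13 after the background correction. The kinase gene prkg1a, which acts in relaxation through cyclic GMP, was not well above background on either control array. It entered the test only through the MCLR arrays. Taken against the lowest signal of any probe well above background on each control array, its MCLR signal was 1.93-fold higher. That is not a bound for this probe. The adjusted p of prkg1a was 0.271 (limma, fitted to control values below background), and its log2 fold change was 0.06 after the background correction. Leaving it aside, 1 of 18 genes of this list above background on all arrays was higher at an unadjusted p under 0.05. That count is from the main fit. In a separate fit limited to such probes, with its own p-values, 1171 of 22371 genes were so.

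The phosphatase side of contraction bears on the toxin's target. The catalytic subunit of myosin phosphatase, ppp1cb, was at 3.82 and 3.85 in control testes and 3.58 and 3.61 in exposed testes. The groups did not overlap, MCLR lying below, as in 9.08% of all genes. The log2 fold change of -0.24 ± 0.23 did not pass (adjusted p = 0.974, limma). Its targeting subunit ppp1r12a was at -0.01 and -0.54 in control testes and -0.39 and -1.03 in exposed testes, so the groups overlapped. Another targeting subunit gene, ppp1r12c, was at 2.46 and 2.71 in control testes and 2.42 and 2.58 in exposed testes. Its groups overlapped too, with a log2 fold change of -0.08 ± 0.25. The inhibitor gene ppp1r14ab gave -0.50 ± 0.24 and the calmodulin gene calm1a, whose product switches on myosin light chain kinase, -0.48 ± 0.26, with adjusted p of 0.677 and 0.758 (limma). Of these genes ppp1r14ab and calm1a had the smallest p, while ppp1cb, ppp1r12a and ppp1r12c were singled out after their values were seen.

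Of 16 genes for transcription factors and signals that govern smooth muscle, 0 passed the adjusted threshold and 3 were higher at an unadjusted p under 0.05, beside 8.67% of all genes. Their median log2 fold change was 0.22, with 10 higher and 6 lower. The first was klf4, which represses smooth muscle genes in mammals, at 1.09 ± 0.26 (adjusted p = 0.225, limma). Another tested probe of klf4 gave 0.43. The others were the growth factor gene tgfb1a at 0.84 ± 0.34 and foxc1b at 0.67 ± 0.25 (adjusted p = 0.543 and 0.494, limma). After the background correction klf4, tgfb1a and foxc1b were at 0.20, 0.51 and 0.08. The gene of serum response factor, srfa, which drives smooth muscle genes together with myocardin, was at -2.98 and -2.85 in control testes and -2.39 and -2.43 in exposed testes (log2 fold change 0.50 ± 0.23, adjusted p = 0.656, limma; 0.18 after the background correction). No probe identifier matched myocd, and it is not analysed here.

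Actin genes share long stretches of sequence, so a probe may read more than 1 of them. Of 7 other actin genes, 0 passed the adjusted threshold and 0 had an unadjusted p under 0.05, beside 9.2% of all genes. By the brightest probe their log2 fold changes ran from -0.18 to 0.28. The 4 with the smallest p were acte1, actb1, acta1b and actc1a. Their log2 fold changes were 0.28 ± 0.24, -0.15 ± 0.27, -0.18 ± 0.34 and 0.07 ± 0.26. Single probes differed more, from -0.16 to 0.37 in actb1 (7 probes), -0.18 to 1.23 in acta1b (6) and -0.15 to 1.86 in actc1a (4). The skeletal muscle actin gene acta1b followed acta2 in order, at -2.63 and -1.84 in control testes and -2.54 and -2.28 in exposed testes. So did actc1b, at -0.83 and -0.38 in control testes and -0.60 and -0.54 in exposed testes. The other skeletal actin gene, acta1a, was highest on control replicate 1, at 2.75 against 2.36 to 2.66. The cytoplasmic actin gene actb1 was at 6.76 and 6.95 in control testes and 6.49 and 6.91 in exposed testes.

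The pattern of acta2 over the 4 arrays was also set beside those of 11936 named genes, by the root mean square difference between levels with each gene's own mean removed. The nearest were slc51a (0.033), fgf6b (0.033), cyp51 (0.036), mif4gda (0.037) and ubxn1 (0.041). Of the smooth muscle genes, myh11a was the nearest (0.13, rank 186), followed by myl9b (0.21, rank 1316). The others ranked between 2831 and 6932, with tpm2 the farthest.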

How the data were processed

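Each scanner file was deposited as Agilent Feature Extraction output, version 11.0.1.1 per the file headers. The intensity used, the processed signal, had been corrected by the authors for background and spatial trend within its array and was not yet scaled between arrays; 0 or 1 marks per spot came with it. The deposited series table holds log2 values with array medians between 5.906 and 5.909. Its making is not given in the sources used here, and it served only as an alternative.

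From each log2 processed signal the array's own log2 75th percentile was subtracted (percentiles of 301.0 to 397.8, from 43803 zebrafish spots). Replicate spots were averaged, and 60 probes marked as outliers were dropped. Names came from RefSeq transcripts of GRCz12tu, matching 25949 probes (59.6%). The array design used the Zv9 assembly, so coordinates are left out. Probes entered the test when both arrays of either group were well above background, and the brightest probe stood for its gene. Folds for probes not above background in the controls use the lowest signal of any probe well above background on each control array.

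Exposed and control testes were compared with limma (version 3.58.1, R 4.3.3), group being the only term, by a two-sided test adjusted after Benjamini-Hochberg across 24323 genes. The fit had 2 residual and 3.52 prior degrees of freedom, and the number of arrays limits the precision. Simulated data for this comparison had 24323 genes, few of them changed, and independent errors between arrays. There a log2 change of 1 passed for 0.8% of changed genes. One of 2 passed for 15.2% and one of 3 for 78.8%. Tables and plots were made in Python 3.11.15.

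The members and lists were chosen with earlier results of these data known. The text names all members; in each pathway list the genes with an unadjusted p under 0.05, or the 4 with the smallest p; up to 3 of the brightest markers; and the 5 named genes nearest to acta2. The genes cald1a, tpm3, tpm4a, acta1a, actc1b, ppp1cb, ppp1r12a and ppp1r12c, and those of the closing observations, were named after their values were seen. So were the markers notch3, abcc9, tnnc1a, myh7l, hand2, tnni4a, myl7 and lum. Other settings were quantile and median scaling, the deposited table, other filters and probe rules, and a replicate block. A trended and robust prior was also used, and each array was left out in turn. The setting called the background correction was normexp on the median intensity (offset 50), followed by quantile normalization. The normexp offset of 50 by itself shrinks the log2 fold changes of dim probes, so smaller values there were not read as a test. No block for the slide was possible, since 1 slide held all arrays. Sequences were not used here.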

Additional observations from a re-analysis of the deposited data

How the results depend on the processing

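With 2 arrays per group, changes beyond the intervals given could also be missed. In the simulated data a log2 change of 1 passed for 0.8% of changed genes and one of 2 for 15.2%. Among the 9 smooth muscle genes, and among the pathway lists, the count past the adjusted threshold was 0 under each of the 14 alternatives run. Over all genes it was 214 with median scaling, 2 with the trended and robust prior, and 0 to 322 when 1 array was left out (214 without control replicate 1, 322 without control replicate 2). The replicate number as a block gave 0 calls over all genes and a median of 0.15 for the 9 genes. Replicates of the same number deviated from their group means with a correlation of 0.19 over all genes and 0.67 over the 9 smooth muscle genes. There were only 2 pairs and no label ties them, so the numbers were not taken to pair the arrays.

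The median log2 fold change of the 9 genes ran from -0.07 to 0.40 when 1 array was left out. Signs turned for genes near 0: acta2 was 0.045 after the background correction, myl9a -0.094 and tpm1 -0.087 with median scaling, and tpm1 -0.025 with the mean of its probes. With 1 array left out, acta2 ran from -0.53 to 0.36, myh11a from -0.36 to 0.56, myl9a from -0.10 to 0.10, myl9b from -0.28 to 0.86, desma from -0.0041 to 0.40, desmb from -0.46 to 0.75 and tpm1 from -0.030 to 0.048. The signs of tagln and tpm2 did not turn under the 13 alternatives run for single genes. The desmin genes moved most with the choice of probe. Averaging all tested probes took desma from 0.20 to 0.62 (unadjusted p = 0.0501, adjusted p = 0.476, limma) and desmb from 0.15 to 0.45. The desma mean holds the dim probe that entered only through the MCLR arrays, at 1.41 against 0.20 and 0.27 for the others. Its p therefore also rests on control values below background. After the background correction desma was 0.016. The median difference between control arrays, recomputed under 6 settings chosen after seeing the data, ran from 0.58 to 0.95. Under the same 6, genes lowest on control replicate 1 numbered 7 or 8 of 9, or 15 of 19 with every probe on its own, which counts more features. The cause of the other changes was not tested.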

Other observations

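The transcription factor gene mef2cb, whose family acts in muscle and vessel cells, was at 5.62 and 5.68 in control testes and at 6.06 and 2.83 in exposed testes, by its single probe. Its log2 fold change of -1.20 ± 1.00 (adjusted p = 0.937, limma) had MCLR replicate 2 as its single low array. In the same list foxf1, a forkhead factor gene, was at -4.56 and -4.62 in control testes and -2.66 and -5.001 in exposed testes, where MCLR replicate 1 stood apart.

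Of the 18 testis markers 6 were lowest on control replicate 1, beside 38.7% of all genes. Among the somatic cell markers of that list 4 were lowest there (cyp11c1, star, gsdf and fshr), while sox9a was highest there and dmrt1, lhcgr, insl3, cyp17a1 and amh were lowest on another array. The steroid enzyme gene cyp11c1 was at 2.48 and 3.59 in control testes and 3.58 and 3.62 in exposed testes, and star, which brings cholesterol into mitochondria, at 1.69 and 2.59 in control testes and 2.40 and 2.78 in exposed testes. The Sertoli cell growth factor gene gsdf was at 5.56 and 6.21 in control testes and 6.27 and 6.16 in exposed testes. For cyp11c1, star and gsdf the adjusted p ran from 0.893 to 0.966 (limma).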
